A study of Mus musculus with 4 samples.

Results

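The genes described here are the histone genes of the mouse, in 2 groups. The replication-dependent group was every protein-coding gene whose GENCODE M21 symbol starts with Hist1h, Hist2h, Hist3h or Hist4h, and the variant group was a list of 10 polyadenylated histone genes. The gene count table held 64 of the 77 annotated members among its 16449 genes, 55 of the 67 replication-dependent genes and 9 of the 10 variants. H1fx and 12 replication-dependent genes were not analysed here. Of the 55, 16 encode H2A, 14 encode H2B, 10 encode H3, 11 encode H4 and 4 encode the linker histone H1.

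The counts came from Nanopore long-read RNA sequencing of the dorsal and medial palliums (forebrain wall that gives rise to neocortex and hippocampus) dissected from E11.5 mouse embryos. The labels give 2 libraries as wild-type (WT) and 2 as Tut1 knockout (KO-labelled below). In the latter a floxed exon of Tut1 is removed by Emx1-Cre, a recombinase active in progenitors of the dorsal forebrain and their descendants. Labels call the controls WT and say no more. The read statistics of the study name all 4 libraries as floxed on both chromosomes, which leaves Cre as the difference, while its text also counts heterozygous floxed mice among controls. Cells in which Emx1 is not active keep Tut1 in both groups. Tut1 encodes a terminal uridylyltransferase that acts on U6 snRNA, and the comparison asked which transcripts differ when it is deleted. How many embryos went into a library is not stated, so p-values measure the spread between these libraries, which may be technical. In the edgeR test that spread was estimated mostly over all genes and less from each gene (37.5 prior against 2 residual degrees of freedom).

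Histones package DNA into nucleosomes. The replication-dependent genes are transcribed mainly in S phase, when the cell copies its DNA, lie in clusters, lack introns as a rule, and make mRNAs that end in a conserved stem-loop instead of a poly(A) tail. The stem-loop binding protein SLBP holds that structure during processing, export, translation and decay. The variant genes are scattered, carry introns as a rule, are expressed in dividing and resting cells alike and make ordinary polyadenylated mRNAs.

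The libraries were enriched for poly(A) RNA, and what share of the replication-dependent mRNA was captured was not measured. A stem-loop of 16 bases (a stem of 6 base pairs around a loop of 4 bases) was found in an annotated transcript of 39 of the 55 replication-dependent genes and in 1 of the 9 variants, against 0.224% of 55450 GENCODE genes. The commonest of its forms stood in 23 replication-dependent genes. The windows below, in capitals for the stem-loop, are those of the genes on which the results turn and of the variant that carries one. They were read 5′ to 3′ on the strand of the gene from GENCODE M21 transcripts (build GRCm38).
Hist1h2ap, H2A, chr13:21833026-21833049, minus strand: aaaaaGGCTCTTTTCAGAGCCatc
Hist1h2ag, H2A, chr13:22042478-22042503, minus strand: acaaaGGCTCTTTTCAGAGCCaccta
Hist2h2ac, H2A, chr3:96220413-96220438, minus strand: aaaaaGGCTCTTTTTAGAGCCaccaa
Hist1h1e, linker H1, chr13:23621777-23621802, minus strand: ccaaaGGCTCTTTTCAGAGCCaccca
H2afx, variant H2A.X, chr9:44335235-44335260, plus strand: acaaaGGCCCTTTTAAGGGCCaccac

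The annotated transcript of Hist1h2ap ends 3 bases after this structure, that of Hist1h2ag 23 bases after it and that of Hist2h2ac 57 bases after it. The transcript of Hist1h1e runs on for 1153 bases and that of H2afx for 822 bases. A poly(A) signal (AATAAA or ATTAAA) lay in the last 40 annotated bases of 7 of the 9 variants, and of 2 of the 21 replication-dependent genes whose annotation stops within 100 bases of the stem-loop. It was found in 9 of the 18 replication-dependent genes annotated further than that. A match is a description of the annotation and not a measured end of these reads.

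Total counts ranged from 305642 to 397150 per library, and 5878 genes were abundant enough to test. Tut1 itself was counted 6 and 11 times in WT and 29 and 25 times in the KO-labelled libraries (log2 fold change 1.71 ± 0.40 SE, adjusted p = 0.0113, edgeR quasi-likelihood test). The count covers the whole gene and cannot show whether the floxed exon was lost, so it does not check the labels, from which the groups were taken. WT replicate 1 was the only library with counts of Xist (64) and had 0 counts of the Y-linked genes Kdm5d, Uty, Ddx3y and Eif2s3y, so sex is unevenly spread over the groups. Marker genes of several cell types also moved with the groups. Over all 5878 tested genes, 1.4% were called higher and 0.663% lower, at an adjusted p below 0.05. Summed neuron markers went from 408.9 and 438.5 CPM (counts scaled to a common library size) in WT to 1020.5 and 937.8, with 2 of 6 tested markers called higher. These were Mapt and Dcx, all 6 had positive fold changes, and Tubb3 and Neurod6 overlapped between the groups. Summed microglia markers went from 93.9 and 92.2 to 345.5 and 291.7 CPM, with 3 of 3 tested called higher. Summed pallial progenitor markers went from 2180.9 and 1958.0 to 1291.5 and 1431.0 CPM, with 1 of 7 tested (Lhx2) called lower. Without Lhx2 the other 9 summed to 1126.8 and 1198.2 against 1009.8 and 1062.8 CPM, and the 6 of them that were tested did not pass. Their log2 fold changes were -0.96 for Emx2, with both KO-labelled libraries below both WT libraries (adjusted p = 0.0639, edgeR), -0.60 for Sox2, -0.14 for Pax6, -0.04 for Nes, 0.06 for Vim and 0.66 for Fabp7, with both above. Ventral forebrain markers summed to 0 and 50.3 CPM in WT against 138.2 and 90.3 CPM in the KO-labelled libraries, with 1 of 2 tested higher, and mesenchyme markers to 90.9 and 229.0 against 425.2 and 288.3 CPM, with 1 of 3 higher. Endothelial markers summed to 42.4 and 64.2 against 101.0 and 104.2 CPM, with 0 of 1 tested called, and blood markers overlapped, with 1 of 5 tested called lower. Emx1, which marks the pallium, had few counts, 6 and 7 in WT against 1 and 2 in the KO-labelled libraries. Ventral markers were all at 0 in WT replicate 1. Among other defining markers, Reln was at 0 in both WT libraries, Hes5 in WT replicate 1, C1qa in both WT libraries and C1qb in every library but WT replicate 2. The part of these shifts and of sex in the histone values was not tested. In bulk tissue, fewer cells of a type and less RNA per cell cannot be told apart.

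Of the 15 histone genes tested, 3 (Hist1h2ap, Hist1h2ag and H2afy) passed the test as lower in the KO-labelled libraries and 0 as higher, against 0.663% and 1.4% of all tested genes. The log2 fold change was negative in 11 of the 15 and positive in 4, against 3032 and 2846 of all tested genes. Both KO-labelled libraries lay above both WT libraries for 2 of the 15, Hist1h2bc and H3f3b, against 22.1% of all tested genes. They lay below both for 7 of the 15, against 20.8%. The summed counts of both histone groups lay lower in the KO-labelled libraries, but not in every class or gene. Summed over all 55 replication-dependent genes, the counts were 635 and 613 in WT against 508 and 397 in the KO-labelled libraries. As a share of all counts this was 0.1759% (95% exact binomial interval 0.1625 to 0.1901) and 0.1561% (0.144 to 0.169) in WT, and 0.1279% (0.117 to 0.1395) and 0.1299% (0.1174 to 0.1433) in the KO-labelled libraries. These intervals cover counting error only. After TMM scaling the sum was 1817.8 ± 149.4 CPM in WT against 1364.4 ± 20.4 CPM in the KO-labelled libraries (SD, n = 2 each), a log2 ratio of -0.41. Both KO-labelled libraries lay below both WT libraries, and without WT replicate 1 the log2 ratio was -0.33.

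The 9 variants summed to 1221 and 1302 counts in WT and to 1188 and 938 in the KO-labelled libraries. Scaled, this was 3667.5 ± 43.7 CPM against 3207.5 ± 71.3 CPM (SD, n = 2 each), a log2 ratio of -0.19, again without overlap. Per 100 variant counts there were 52.0 and 47.1 replication-dependent counts in the WT libraries against 42.8 and 42.3 in the KO-labelled libraries. No test was made of the difference between these sums.

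Few genes carried each sum. The 4 H2A genes with the most counts held 66.6% and 61.2% of replication-dependent counts in WT and 52.2% and 48.6% in the KO-labelled libraries. Without Hist1h2ap the log2 ratio of the replication-dependent sum was -0.30. Without Hist1h2ap and Hist1h2ag, the members that passed the test, it was -0.18. Among the variants H3f3a, H2afy and H2afz held between 90.8% and 92.4% of the counts, and without H2afy, the variant that passed the test, the log2 ratio was -0.09. These subsets were chosen after the values were seen, and leaving out members that were lower moves a ratio upward by construction.

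**Figure D1:**
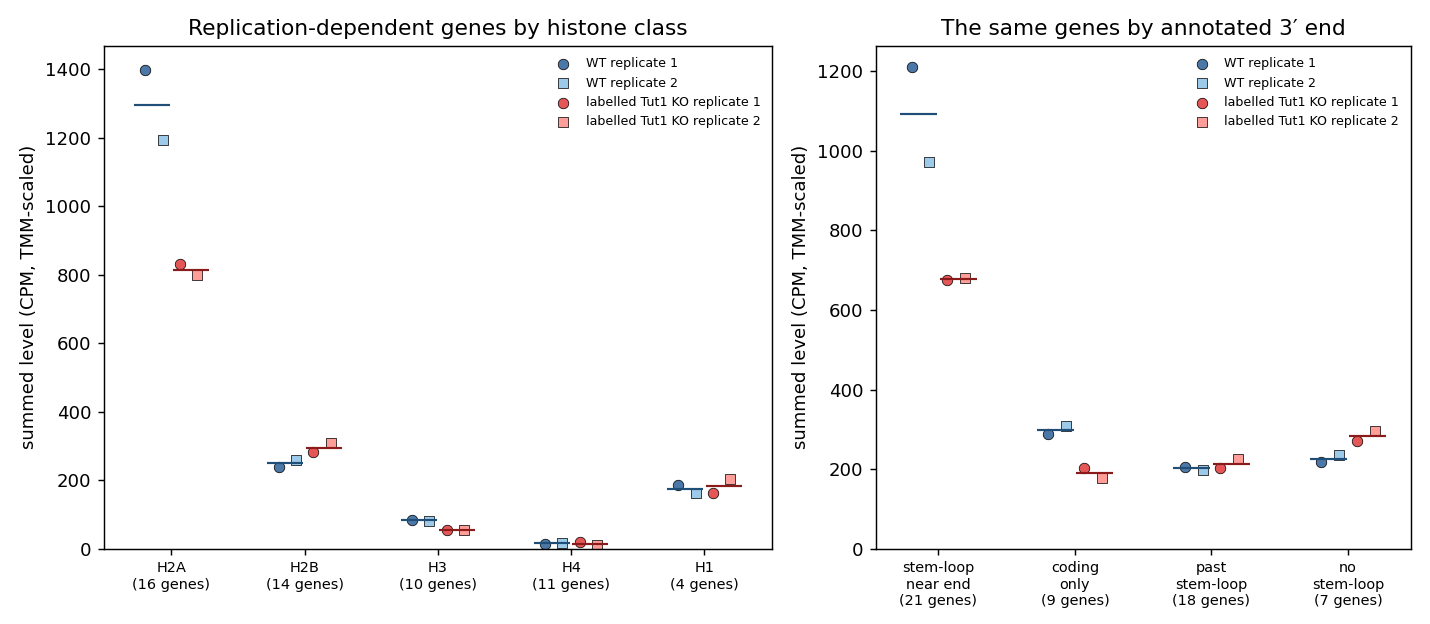
Summed levels of replication-dependent histone genes in each library, in CPM scaled by TMM, by the histone they encode (left) and by how the annotated transcript ends (right). Points are libraries and bars are the means of 2 libraries. The H2A sum was at 1399.4 and 1192.7 CPM in WT and at 831.8 and 798.8 CPM in the KO-labelled libraries, and among the classes by histone the H2B sum was the only class sum with both of those libraries above WT.

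Of the replication-dependent genes, 45 had at least 1 count, 17 had 10 or more over the 4 libraries and 8 passed the filter on low counts. Called lower at an adjusted p below 0.05 were 2 of the 8, Hist1h2ap and Hist1h2ag, and 0 were called higher, while 4 of the 8, all lower, had an unadjusted p below 0.05. Over all 5878 tested genes 0.663% were called lower, 1.4% were called higher and 2.06% in either direction, and 6.31% were lower at an unadjusted p below 0.05. Both KO-labelled libraries lay below both WT libraries for 5 of the 8, against 20.8% of all tested genes, and above them for 1, against 22.1%. The median log2 fold change of the 8 was -0.64 (6 negative, 2 positive) and that of all tested genes was -0.01. When all 45 genes with a count were fitted, their median was -0.07, so the -0.64 describes only the 8 genes that passed the filter. Only 17 of the 45 had 10 or more counts, so the median of -0.07 cannot tell whether the rarer genes differed. The 47 genes that were not tested summed to 61 and 64 counts in WT against 59 and 47 in the KO-labelled libraries, a log2 ratio of -0.18.

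H2A genes made up most of the difference. H2A pairs with H2B on the flank of the nucleosome, and the replication-dependent H2A genes encode nearly the same protein from many copies. All 16 summed to 462 and 427 counts in WT against 313 and 230 in the KO-labelled libraries, a log2 ratio of -0.67. Hist1h2ap (chr13:21833026-21833507, minus strand, 1 exon) had 150 and 147 counts in WT against 98 and 62 in the KO-labelled libraries. Its level was 432 ± 31.0 CPM in WT against 238 ± 31.9 CPM in the KO-labelled libraries (SD, n = 2 each). This was -0.85 ± 0.19 SE as a log2 fold change (adjusted p = 0.00742, edgeR). The groups did not overlap.

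Hist1h2ag (chr13:22042460-22042944, minus strand, 1 exon) had 125 and 92 counts in WT against 69 and 53 in the KO-labelled libraries. Its log2 fold change was -0.78 ± 0.22 SE (adjusted p = 0.0433, edgeR), with WT replicate 1 standing highest at 379 CPM and the other 3 libraries at 257, 183 and 184 CPM. Neither call held when certain single libraries were left out. For Hist1h2ap the adjusted p of the edgeR test was 0.0975 without WT replicate 1, 0.16 without KO-labelled replicate 1 and 0.197 without KO-labelled replicate 2, with log2 fold changes of -0.79 without WT replicate 1, -0.73 without KO-labelled replicate 2 and a larger fall without KO-labelled replicate 1. For Hist1h2ag it was 0.522, 0.378 and 0.282 in the same order, and the log2 fold changes were -0.49, -0.78 and -0.79. DESeq2 called neither gene (adjusted p = 0.191 and 0.591), at log2 fold changes of -0.86 and -0.79.

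The other abundant H2A genes did not pass the test. Hist2h2ac, from the smaller cluster on chromosome 3, had 88 and 65 counts in WT against 45 and 47 in the KO-labelled libraries, a log2 fold change of -0.68 ± 0.25 SE (adjusted p = 0.162, edgeR). It was -0.39 without WT replicate 1 and -0.45 without KO-labelled replicate 1. Hist1h2ah had 60 and 71 counts against 53 and 31, a log2 fold change of -0.60 (adjusted p = 0.235). In both genes the groups did not overlap. Hist1h2ao had 12 and 22 counts against 14 and 17, a log2 fold change of -0.07 with overlapping groups. The H2A sum without Hist1h2ap and Hist1h2ag had a log2 ratio of -0.47, from 187 and 188 counts in WT to 146 and 115.

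**Figure D2:**
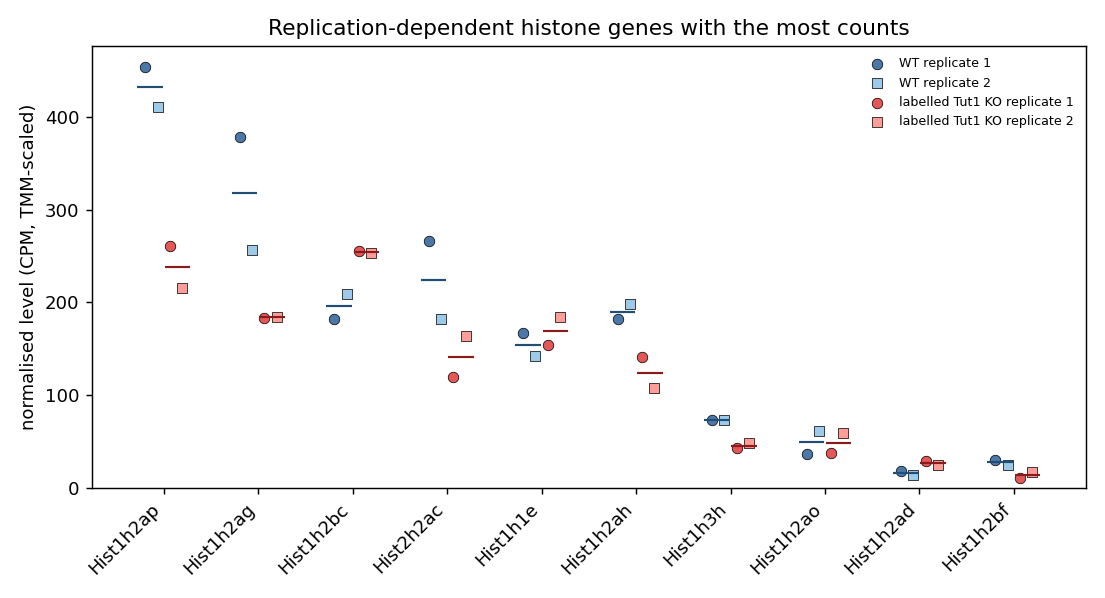
Level in CPM (TMM-scaled) of the 10 replication-dependent histone genes with the most counts, in each library. Points are libraries and bars are the means of 2 libraries. Hist1h2ap, Hist1h2ag, Hist2h2ac, Hist1h2ah and Hist1h3h had both KO-labelled libraries below both WT libraries, Hist1h2bc had both above, and levels are to be compared within a gene since transcript lengths differ.

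The sum of the 14 genes encoding H2B, the partner of H2A, turned on Hist1h2bc. They summed to 79 and 93 counts in WT against 106 and 89 in the KO-labelled libraries, a log2 ratio of 0.24 with both KO-labelled libraries above WT. Hist1h2bc supplied most of these counts, 60 and 75 in WT against 96 and 73 in the KO-labelled libraries. Its log2 fold change was 0.38 ± 0.21 SE (adjusted p = 0.454, edgeR), which did not pass the test. The 13 other H2B genes had 19 and 18 counts in WT against 10 and 16 in the KO-labelled libraries, which overlap after scaling, at a log2 ratio of -0.39.

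H3 and H4 form the centre of the nucleosome. The 10 replication-dependent H3 genes summed to 28 and 29 counts in WT against 21 and 16 in the KO-labelled libraries, a log2 ratio of -0.57, and 4.4% of replication-dependent counts were theirs. Hist1h3h was the only one tested, with 24 and 26 counts in WT against 16 and 14 in the KO-labelled libraries (log2 fold change -0.68 ± 0.36 SE, adjusted p = 0.401, edgeR). The 11 H4 genes had 5 and 6 counts in WT against 7 and 3 in the KO-labelled libraries, 1.0% of the total, and a difference was not detectable at this depth.

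Linker histone H1 binds the DNA between nucleosomes. The 4 H1 genes summed to 61 and 58 counts in WT against 61 and 59 in the KO-labelled libraries, overlapping, with a log2 ratio of 0.08. Hist1h1e supplied 55 and 51 of these in WT against 58 and 53 in the KO-labelled libraries (log2 fold change 0.12 ± 0.24 SE, adjusted p = 0.891, edgeR).

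Among untested replication-dependent genes with 10 or more counts, the lowest folds were those of Hist1h2ai (6 and 5 counts in WT, 1 and 2 in the KO-labelled libraries), Hist1h1a (5 and 4 against 1 and 3) and Hist1h2bf (10 and 9 against 4 and 5). The highest were those of Hist1h2ab (2 and 0 against 7 and 1), Hist1h2ad (6 and 5 against 11 and 7) and Hist1h2an (2 and 4 against 4 and 4). When all genes with a count were fitted by edgeR, their adjusted p lay between 0.582 (Hist1h2ai) and 0.897 (Hist1h2an). The genes at 0 in every library were Hist1h2bb, Hist1h2bj, Hist1h2bm, Hist1h3g, Hist1h3i, Hist1h4a, Hist1h4b, Hist1h4i, Hist1h4k and Hist2h2ab, and 0 counts allows a level of up to 2.22 CPM over all libraries (3 counts on the TMM scale) of what was counted under a symbol. It does not limit the level of a copy whose reads could be counted under another gene, such as Hist1h3i or Hist1h3g, with which Hist1h3h shared 87.1% and 80.6% of its words of 25 bases.

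By position in the genome, the Hist1 genes, 45 members on chromosome 13 between 21715763 and 23764406 (GRCm38), held 86.7% of replication-dependent counts and had a log2 ratio of -0.39. The 7 Hist2 members on chromosome 3 between 96219865 and 96269141 held 12.7% and had a log2 ratio of -0.55. The 2 Hist3 members and the 1 Hist4 member had 8 and 6 counts in all.

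The classes by annotated 3′ end differed in direction. The 21 genes annotated to within 100 bases of a stem-loop summed to 400 and 348 counts in WT against 254 and 196 in the KO-labelled libraries, a log2 ratio of -0.69. The 9 genes annotated as coding sequence with few or no further bases (18 in Hist1h2ah, which held most of their counts) had 95 and 110 counts against 76 and 51, a log2 ratio of -0.65. In both classes the groups did not overlap.

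The 18 genes annotated more than 100 bases past a stem-loop had 68 and 71 counts in WT against 76 and 65 in the KO-labelled libraries, overlapping, with a log2 ratio of 0.08. The 7 genes with no stem-loop in the annotated transcript had 72 and 84 against 102 and 85 counts, a log2 ratio of 0.32 with both KO-labelled libraries above WT. Each of these last classes rested on 1 gene, Hist1h1e and Hist1h2bc. Since H2A supplies most of the first class, histone type and 3′ end cannot be told apart here, and the limits of the classes were set after the counts were seen. The nearest genes on either side of the limit ended 74 and 108 bases after the stem-loop. With a limit of 50 bases, which moves Hist2h2ac to the longer class, the log2 ratio was -0.70 for the shorter class and -0.26, overlapping, for the longer one, and with 200 bases it was -0.67 and 0.06.

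Copies of these genes share sequence, and how reads fitting several genes were assigned is not stated. Words of 25 bases were taken from the longest coding transcript of each gene. Of its words, Hist1h2ap had 6.6% that occur in no other gene, Hist1h2ah 8.7%, Hist1h2ao 5.9%, Hist1h3h 4.4%, Hist1h2ag 18.9% and Hist2h2ac 43.1%. For Hist1h2bc the share was 66.7% and for Hist1h1e 63.8%. Hist1h2ag shared 73.3% of its words with Hist1h2ap and the same share with Hist1h2ao. Values of single H2A and H3 genes are therefore uncertain, while a sum over a histone class does not depend on how reads were divided within it. Such a sum can still depend on reads that fit genes outside the class. Hist1h2ah shared 34.6% of its words with the variant H2afx and 44.6% with the pseudogene Gm11336. The H2A pseudogene Gm11336 had 7 and 4 counts in WT against 10 and 2 in the KO-labelled libraries.

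Promoter motifs were counted next. Among 51 of the 55 genes matched to a RefSeq promoter (250 bases before to 50 after the start, GRCm38.p6), CCAAT on either strand was found in 86.3%, TATAAA in 56.9% and ATTTGCA in 19.6%. The shares over all 32851 RefSeq promoters were 37.4%, 13.6% and 4.0%. Of the 8 matched variants, 75.0% held CCAAT, 12.5% TATAAA and 12.5% ATTTGCA. The promoters of the replication-dependent members that passed the test are given here, 5′ to 3′ on the strand of the gene, with matches to CCAAT in capitals on either strand.
Hist1h2ap, chr13:21833426-21833725, minus strand: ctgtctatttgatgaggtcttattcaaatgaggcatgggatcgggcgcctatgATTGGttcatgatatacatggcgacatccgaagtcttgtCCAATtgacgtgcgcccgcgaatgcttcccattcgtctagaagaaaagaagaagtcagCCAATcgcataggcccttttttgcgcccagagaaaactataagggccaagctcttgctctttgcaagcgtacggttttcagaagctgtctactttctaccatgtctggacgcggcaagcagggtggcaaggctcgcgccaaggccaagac
Hist1h2ag, chr13:22042900-22043199, minus strand: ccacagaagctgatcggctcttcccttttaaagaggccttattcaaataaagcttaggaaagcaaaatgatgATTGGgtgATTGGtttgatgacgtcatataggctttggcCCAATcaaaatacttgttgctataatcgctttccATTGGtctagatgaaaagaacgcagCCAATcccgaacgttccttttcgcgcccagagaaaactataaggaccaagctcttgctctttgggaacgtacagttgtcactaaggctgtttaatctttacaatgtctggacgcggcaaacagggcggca
Neither window held TATAAA or ATTTGCA, and such a match or its lack says nothing about a factor. The H2afy window held none of the 3 motifs.

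Polyadenylated variants were represented by 9 genes, each with at least 1 count, and 7 passed the filter. Called lower was 1 of the 7, against 0.663% of all tested genes, and called higher were 0, and the median log2 fold change of the 7 was -0.17. This median was -0.0002 without KO-labelled replicate 1, -0.085 without WT replicate 1 and -0.29 without KO-labelled replicate 2. Both KO-labelled libraries lay below both WT libraries for 2 of the 7 and above them for 1, against the 20.8% and 22.1% of all tested genes. H2afy encodes macroH2A1, an H2A with a large extra domain that is associated with silent chromatin. It had 321 and 369 counts in WT against 278 and 192 in the KO-labelled libraries, and 1001 ± 41.2 CPM against 703 ± 50.9 CPM (SD, n = 2 each). Its log2 fold change was -0.51 ± 0.14 SE (adjusted p = 0.0473, edgeR).

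H2afy lies on chromosome 13 (56073619 to 56136361, minus strand) and has up to 9 exons. Its longest coding transcript shared none of its words of 25 bases with another gene, so 100% were its own. The call of H2afy was near the threshold. The adjusted p of the edgeR test was 0.166 without WT replicate 1, 0.272 without WT replicate 2, 0.23 without KO-labelled replicate 1 and 0.307 without KO-labelled replicate 2, while the log2 fold change stayed between -0.44 and -0.59. DESeq2 gave an adjusted p of 0.417. Its close relative H2afy2, encoding macroH2A2, had 8 and 5 counts in WT against 12 and 7 in the KO-labelled libraries and was not tested.

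The H3.3 genes encode a histone deposited independently of DNA replication. H3f3a had 597 and 635 counts in WT against 626 and 489 in the KO-labelled libraries, or 1808 and 1774 CPM against 1664 and 1698 CPM. Its groups did not overlap, yet the log2 fold change was -0.09 ± 0.12 SE (adjusted p = 0.814, edgeR). H3f3b had 20 and 16 counts in WT against 23 and 19 in the KO-labelled libraries, a log2 fold change of 0.27 (adjusted p = 0.823).

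The other H2A variants did not pass the test. H2afz, encoding H2A.Z, which marks active promoters, had 210 and 198 counts in WT against 176 and 171 in the KO-labelled libraries, a log2 fold change of -0.17 (adjusted p = 0.719, edgeR). H2afv, encoding a second H2A.Z, had 23 and 14 against 13 and 18, and H2afx, encoding the DNA damage variant H2A.X, had 13 and 23 against 16 and 11. H2afj had 2 and 2 counts in WT against 5 and 1 in the KO-labelled libraries and was not tested. The replacement linker histone H1f0, which accumulates in cells that stop dividing, had 27 and 40 against 39 and 30 counts, a log2 fold change of 0.10 (adjusted p = 0.924).

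**Figure D3:**
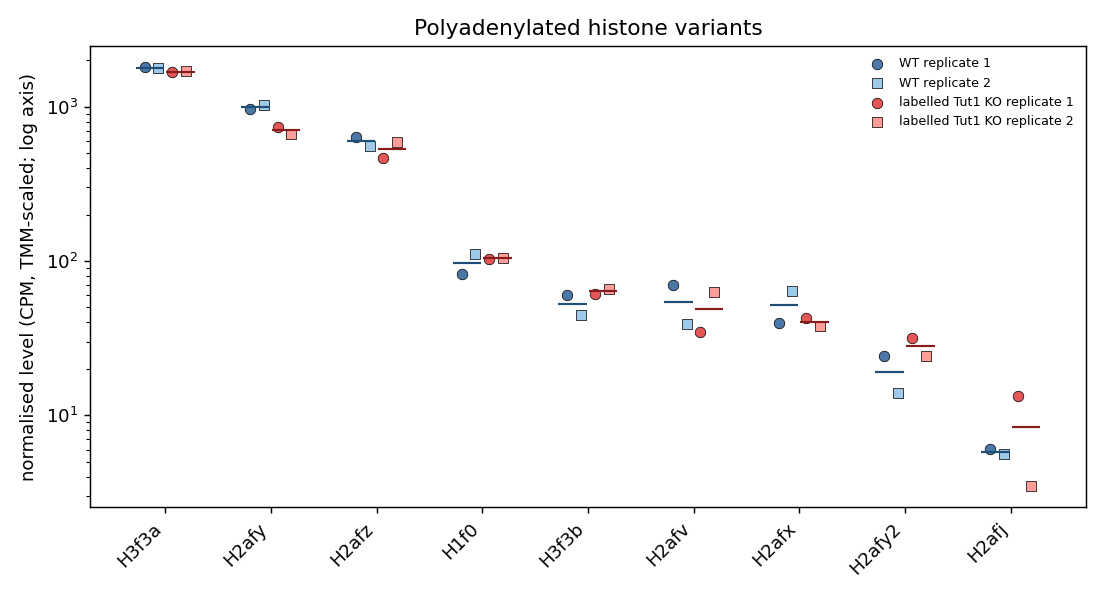
Level in CPM (TMM-scaled, log axis) of the 9 polyadenylated histone variants in each library. Points are libraries and bars are the means of 2 libraries. H2afy stood at 972 and 1031 CPM in WT against 739 and 667 CPM in the KO-labelled libraries, H3f3a was also lower in both, H3f3b and H2afy2 were higher in both, and the other 5 overlapped.

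Levels of different genes were compared per kilobase of annotated exonic sequence. On this scale Hist1h2ap stood highest, at 897 CPM per kilobase in WT against 494 in the KO-labelled libraries, followed in WT by Hist1h2ag (655), H3f3a (511), Hist1h2ah (469), Hist2h2ac (431) and H2afz (335). H3f3a was at 480 CPM per kilobase in the KO-labelled libraries. The order depends on this division, which long reads counted as molecules may not need, and on the annotation, since the exonic sequence of a gene pools its isoforms. In CPM without it H3f3a (1791), H2afy (1001) and H2afz (595) lay above Hist1h2ap (432) in WT.

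**Figure D4:**
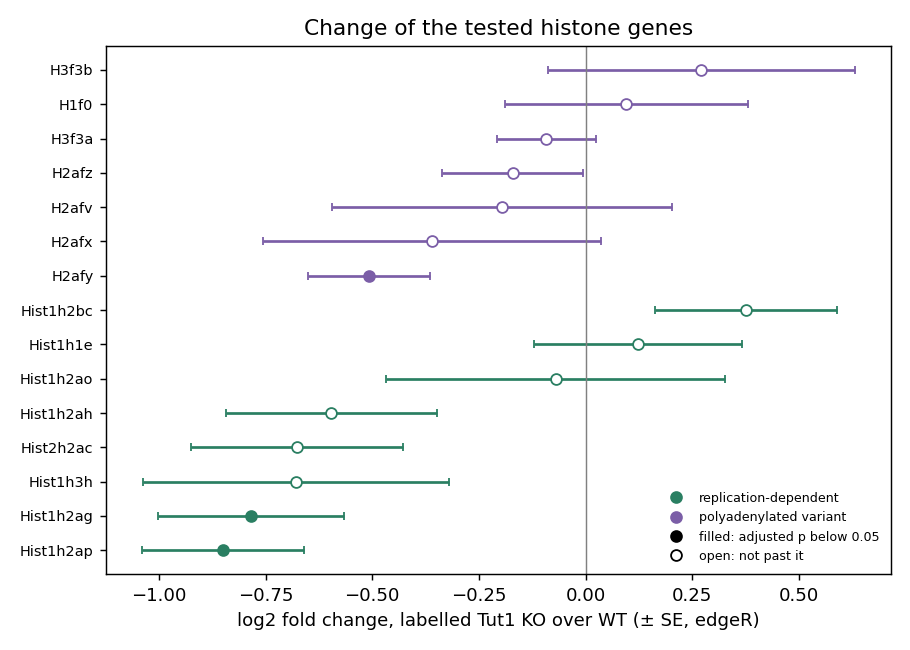
Log2 fold change of the 15 histone genes that were tested, libraries labelled Tut1 knockout over WT, with the standard error from edgeR as bars. Filled points passed an adjusted p below 0.05. Hist1h2ap, Hist1h2ag and H2afy are filled, and Hist1h2bc has the largest positive value, 0.38, among the 15.

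Genes that make, store and remove histone mRNA were read from lists. For 3′ end processing, 14 genes were listed, 6 were tested and 0 were called by edgeR (0 also at an unadjusted p below 0.05), with a median log2 fold change of -0.16. Srrt, which joins the cap complex to histone mRNA processing, had 46 and 52 counts in WT against 49 and 36 in the KO-labelled libraries, Casp8ap2, a factor of histone locus bodies, 42 and 38 against 44 and 38, and Cpsf3, the endonuclease that cuts after the stem-loop, 26 and 24 against 38 and 28. Slbp, named after its values were seen, had 24 and 26 against 22 and 21 counts (log2 fold change -0.16, adjusted p = 0.893, edgeR).

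For histone mRNA decay, 9 genes were in the table, 6 were tested and 0 were called by edgeR (0 also at an unadjusted p below 0.05), with a median of 0.05. Xrn1, the 5′ to 3′ exonuclease, had 70 and 90 counts in WT against 99 and 70 in the KO-labelled libraries. The uridylyltransferases Tut4 and Tut7, which act on histone and other mRNAs, had 61 and 74 against 64 and 63 and 46 and 58 against 57 and 53 counts. DESeq2 also called 0 genes of either list.

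Histone chaperones carry histones from synthesis to DNA. Of 21 listed, 17 were tested, 1 was called lower (against 0.663% of all tested genes) and 0 higher. At an unadjusted p below 0.05 were 5 (4 lower and 1 higher), against 14.2% of all tested genes in either direction, and the median log2 fold change was -0.25. Nasp, which holds soluble H3 and H4 and linker histones, had 489 and 449 counts in WT against 344 and 296 in the KO-labelled libraries (log2 fold change -0.50 ± 0.13 SE, adjusted p = 0.0359, edgeR), without overlap. No chaperone was called without WT replicate 1, without either KO-labelled library or by DESeq2 (0 called in each case). Nap1l1, an H2A and H2B chaperone, had 567 and 578 against 513 and 380 counts with an adjusted p of 0.195 and a log2 fold change of -0.31. For Npm1, an abundant nucleolar chaperone, it was -0.33 (adjusted p = 0.256) and for Rbbp4, a subunit of several chromatin complexes, -0.32 (adjusted p = 0.332). The higher one, Cabin1, a subunit of the HIRA complex that deposits H3.3, was named after its values were seen and had 11 and 15 counts in WT against 28 and 22 (log2 fold change 0.99 ± 0.37 SE, adjusted p = 0.17, edgeR).

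DNA replication and S phase genes, whose expression accompanies histone synthesis, were 24, of which 21 were tested. The main edgeR fit and DESeq2 each called 0. In the edgeR fit 3 had an unadjusted p below 0.05, against 14.2% of all tested genes. With limma-voom, the bias-adjusted quasi-likelihood or a filter of 10 counts in 2 libraries, 1 was called. The median log2 fold change of the 21 was -0.28 (16 negative, 5 positive), beside -0.01 for all tested genes (3032 negative, 2846 positive). For replication-dependent histones it was -0.64 over the 8 tested and -0.07 over all 45 with a count. The log2 fold change was -0.35 (adjusted p = 0.571) for the helicase subunit gene Mcm7 and -0.23 (adjusted p = 0.749) for the ligase gene Lig1. Cenpa, the centromeric H3 variant and the 1 gene of the list of further variants in the table, had 45 and 40 counts in WT against 34 and 19 in the KO-labelled libraries (log2 fold change -0.64 ± 0.29 SE, adjusted p = 0.287, edgeR).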

How the data were processed

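The deposited values were raw read counts per gene, made by the authors from Nanopore reads of poly(A)-enriched RNA with minimap2 (Ensembl transcripts) and FLAIR (build GRCm38 per the labels). How isoforms were summed and multi-mapping reads assigned is not given in the sources used here. Of 16449 identifiers, 16436 matched GENCODE M21, which gave symbols, types and transcripts. Sequences came from GENCODE M21 transcripts and, for promoters, RefSeq.

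Genes were kept by filterByExpr (minimum count 10, minimum total 15), scaled by TMM and tested two-sided with the quasi-likelihood test of edgeR 4.0.16 in R 4.3.3 with no covariate, and adjusted by Benjamini-Hochberg over 5878 genes, threshold 0.05. Library sizes were recomputed after the filter, an option set after a first fit that called the same number of genes. The biological coefficient of variation was 10.5%. CPM of every gene, tested or not, uses these sizes. Fold changes on sums are ratios of mean CPM, with no test. The standard error is from the same fit. DESeq2 1.42.0 and limma-voom (limma 3.58.1) were alternatives, as were other scalings and filters, the replicate block, leaving out each library and thinning. Scripts were tested on simulated counts.

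Depth was 305642 to 397150 counts per library, where 3 counts equal 7.97 to 10.4 CPM on the TMM scale. Replicates differed by more than sampling noise (chi-square per degree of freedom 1.5 in WT against 1.43 in the KO-labelled libraries).

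Members, lists and end classes were chosen with earlier results of these data known. Named were all variants, the 10 replication-dependent genes with the most counts, called members, the 3 largest folds in each direction at 10 or more counts, called members of each list with up to 3 more by mean count, and Tut1. The sex-linked genes, Gm11336, Slbp, Cabin1 and marker genes were named after their values were seen. The classes by 3′ end used limits of 100 bases after the stem-loop and 30 non-coding bases, the latter set so that Hist1h2ah counts as coding sequence alone. Some genes that the naming rule or the marker lists cover are not reported here.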

Additional observations from a re-analysis of the deposited data

How the results depend on the processing

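With every scaling, thinning and omission run, the sums of both histone groups stayed lower in the KO-labelled libraries. Leaving out each library in turn, the log2 ratio of the replication-dependent sum ranged from -0.50 to -0.33 and that of the variant sum from -0.22 to -0.17, and the variant sum was at -0.14 with total counts only and -0.15 after thinning to the smallest library. The median log2 fold change of replication-dependent genes was -0.066 with no filter, where all 45 genes with a count enter, and ranged from -0.62 to -0.44 over the omissions, the latter without WT replicate 1. That of the variants ranged from -0.29 to -0.0002.

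Counts of calls moved more. Replication-dependent genes called fell from 2 to 1 with total counts only and to 0 with DESeq2 and after thinning, and ranged from 0 to 2 over the omissions, with 0 without WT replicate 1 and without each KO-labelled library. Variants called fell from 1 to 0 with total counts only, with no filter, with DESeq2 and after thinning, and were 0 under each omission. Chaperones called fell from 1 to 0 with total counts only, DESeq2 and thinning, and ranged from 0 to 1 over the omissions. For DNA replication and S phase genes 1 was called with a filter of 10 counts in 2 libraries, with limma-voom and with the bias-adjusted quasi-likelihood. Over all genes 121 were called, against 8 with DESeq2 (218 at an unadjusted p below 0.05), 23 after thinning and 3 to 108 over the omissions, with 3 without KO-labelled replicate 1, 35 without KO-labelled replicate 2 and 75 without WT replicate 1. Of the 121, 82 were higher, against 105 of 129 with total counts only. Library sizes taken before the filter, added after the data were seen, called the same 121.

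The replicate number as a block called 76 genes, 1 replication-dependent gene (Hist1h2ap), 0 variants and 0 chaperones. Over the tested genes the differences between replicates 1 and 2 of the groups correlated at -0.06. With 2 libraries per group this did not detect a pairing of same-numbered libraries and cannot exclude one.

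For the members tested singly, 21 values lost their call, all in Hist1h2ap, Hist1h2ag and H2afy, 8 changed sign with no call on either side, in Hist1h1e, Hist1h2ao, H2afv, H2afx and H1f0, and 179 did neither. The causes were not tested. At this depth most replication-dependent genes had too few counts to test.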
